A study of Arabidopsis thaliana with 12 samples.

Results

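SQUAMOSA PROMOTER BINDING PROTEIN-LIKE (SPL) genes were followed in synchronised Arabidopsis inflorescences while flowers formed. The set held 10 loci of the ageing pathway, SPL2 (AT5G43270), SPL3 (AT2G33810), SPL4 (AT1G53160), SPL5 (AT3G15270), SPL6 (AT1G69170), SPL8 (AT1G02065), SPL9 (AT2G42200), SPL10 (AT1G27370), SPL11 (AT1G27360) and SPL15 (AT3G57920), named by locus in a rule that uses no measured value, although the list was drawn up with earlier results of these data known. They carried 39 of the probes on a custom Agilent array that named 28327 loci, and 36 of these probes, covering all 10 genes, were bright enough to be tested. All plants carried pAP1:AP1-GR in the ap1-1 cal-1 double mutant, a background that makes cauliflower-like heads of meristems in place of flowers. The transgene is driven by the promoter of APETALA1 (AP1) itself, and the AP1 protein is held inactive by a fused glucocorticoid receptor domain until dexamethasone is given. Inflorescences received 2 μM dexamethasone in 0.01% ethanol daily, and tissue was taken at day 0, before induction according to the labels, and at 2, 4 and 8 days after the first treatment. The methods of the study describe day 0 as mock treated and collected at once, and no array held a mock sample of a later day. Each sample pooled the inflorescences of many plants, about 4 weeks old. There were 4 independent sets of samples and so 16 RNA extracts, and each of the 12 arrays compared 2 consecutive time points of 1 set with 2 dyes, giving 4 arrays for day 0 to day 2, 4 for day 2 to day 4 and 4 for day 4 to day 8.

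SPL proteins are plant transcription factors that bind DNA through the SBP domain. In young Arabidopsis plants the microRNA miR156 keeps most SPL transcripts down by cleavage and translational repression, and its decline with age releases them, which makes the family the output of the ageing pathway to flowering. SPL9 and SPL15 are close relatives that promote the vegetative phase change and flowering, SPL3, SPL4 and SPL5 encode small proteins tied to floral meristem identity, and SPL2, SPL10 and SPL11 form a further group with roles in shoot and organ traits. SPL6 is also a miR156 target, whereas SPL8, which acts in anther development, is not. Among the genes described as direct targets of SPL proteins are MIR172b and the floral regulators LEAFY (LFY), FRUITFULL and SOC1. An array reports the level of transcript and not protein, so repression of translation by miR156 would not show in these values.

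The values below are log2 ratios of the later over the earlier day. Standard errors and p-values come from limma fitted to all 12 arrays, with p-values adjusted by the method of Benjamini and Hochberg over 28247 probes tested. The spread of a probe was estimated once over all 12 arrays, so its SE is the same in every step unless a spot was left out. Such an SE does not show whether 1 step varied more among sets than another. A probe was called when its adjusted p was below 0.05 and its change at least 1.8-fold (0.85 on the log2 scale). A gene is given by its brightest probe, with the others beside it. The brightest probes of all 10 genes were well above background in every channel of the 10 arrays whose scanner files matched the series table. The scanner files of sets 3 and 4 for day 0 to day 2 held other values, as 16.3% and 20.2% of their probes had the tabulated ratio, so for these arrays only the table was used. By the headers of the scanner files, all 4 arrays of day 0 to day 2 shared a slide that held no other array, so an effect of the slide cannot be told apart from that step. For sets 3 and 4 these headers belong to the files that did not match. The day 4 to day 8 array of set 2 was scanned apart from the others and stood out as a whole, with 1340 marked probes against 19 to 110 on the other arrays and 11.8% of its tabulated ratios at exactly 0 against 23.1% to 29.9%. Floral organ genes checked the labels, since all 6 of 6 were called higher at day 2 than at day 0, with a change of 5.41 for APETALA3 and 3.19 for SEPALLATA3. The AP1 probes may see both the endogenous and the transgenic transcript, which was not checked because no probe sequence was at hand. They do not report induction, which acts on the protein, and AP1 differed by 0.31 ± 0.09 (SE, n = 4).

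From day 0 to day 2 the SPL genes divided into a group that fell and a group that did not. SPL9 and SPL15 fell the furthest, by more than 1 log2 unit on each of the 4 arrays, SPL5 and SPL3 fell by a smaller amount, and SPL10, SPL11 and SPL6 stayed within 0.14 of no change. By any probe, 6 of 10 genes were called lower at day 2 and none higher, and by the brightest probe alone 4 of 10. The 2 genes called by another probe alone were SPL2 and SPL4, and neither was called after the background was corrected anew on the 10 matching arrays, by normexp or by subtraction, which left 4 genes. Of all 20906 loci tested, 14.6% were called in this step, 5.82% lower and 8.77% higher. The median change was -0.71 over the 10 genes and -0.10 over all loci. By adjusted p alone, with no minimum fold, 7 of 10 genes were lower at day 2 and none higher, against 33.0% and 18.4% of all loci. On bulk tissue of this kind, fewer cells that express a gene and less RNA per cell cannot be told apart.

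**Figure D1:**
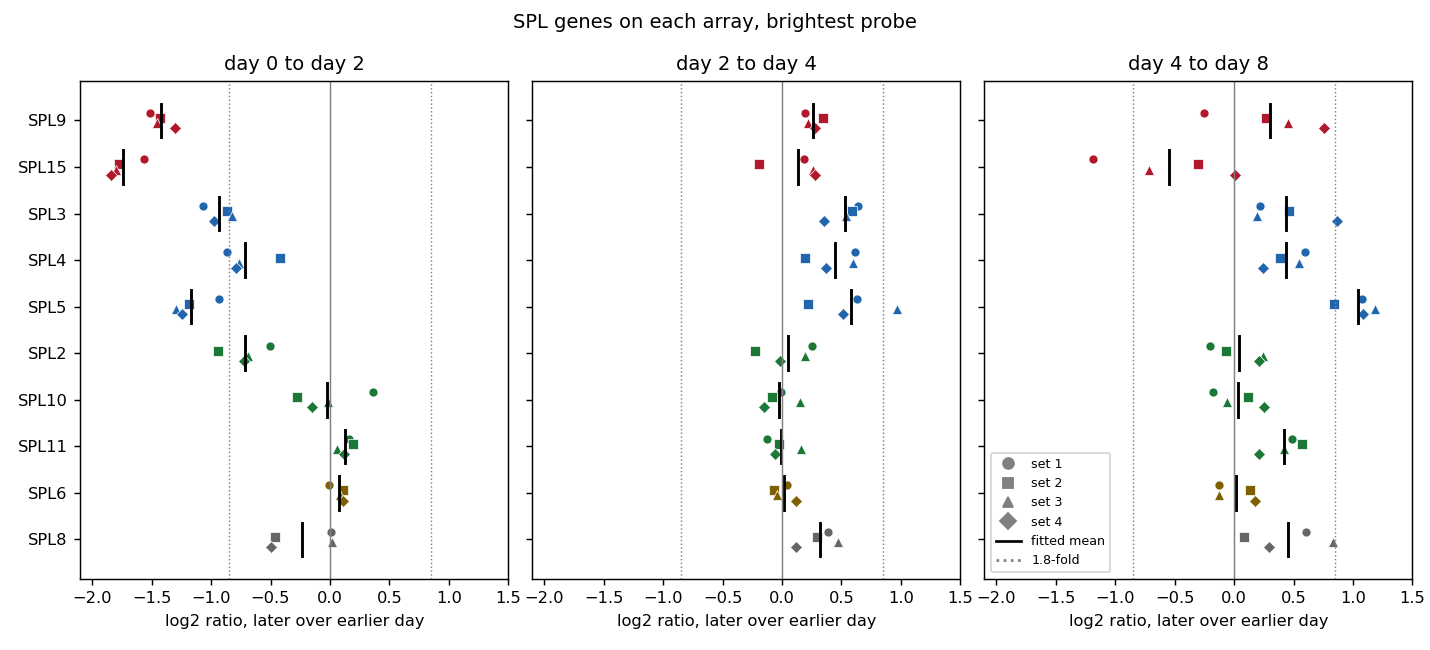
Log2 ratio of the later over the earlier day on each array (x axis) for the brightest probe of each SPL gene (rows, coloured by clade), with 1 panel per step. Symbols are the 4 sets, black bars the fitted means and dotted lines 1.8-fold, and all 4 arrays of SPL9 and SPL15 lie beyond the lower dotted line in the first panel and none of SPL10, SPL11 or SPL6 does.

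SPL15 had ratios of -1.56, -1.77, -1.80 and -1.84 in sets 1 to 4. This left it at 29.9% of its day 0 level on average, a change of -1.74 ± 0.14 (SE, n = 4, adjusted p = 1.11e-06), with its other probes at -1.75 and -1.71. Only 0.789% of the loci tested had a lower value. SPL9 had ratios of -1.51, -1.43, -1.45 and -1.30, and its change was -1.42 ± 0.10 (SE, n = 4, adjusted p = 3.71e-07), or 37.3% of day 0, with the other probes at -1.37 and -1.45. The 4 values of each gene lay closer together than they did in any later step except day 2 to day 4 for SPL9. The ranges of the pair did not overlap, from -1.84 to -1.56 for SPL15 and from -1.51 to -1.30 for SPL9.

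Within the clade of SPL3, SPL4 and SPL5 the fall differed in size. SPL5 had ratios of -0.93, -1.19, -1.30 and -1.24 in sets 1 to 4, a change of -1.16 ± 0.08 (SE, n = 4, adjusted p = 3.57e-07), and all 3 of its probes were called. SPL3 had -1.07, -0.87, -0.82 and -0.97, a change of -0.93 ± 0.09 (SE, n = 4, adjusted p = 6.17e-06), with its other probes at -0.94 and -1.01 and also called. SPL4 had -0.86, -0.42, -0.77 and -0.79 at its brightest probe, and its change of -0.71 ± 0.08 (SE, n = 4, adjusted p = 2.63e-05) was under 1.8-fold. All 4 arrays of each gene were lower at day 2. Of the 5 probes of SPL4, 1 was called, a dimmer gene probe at -1.04 ± 0.11 (SE, n = 4), while the others lay between -0.76 and -0.49. Set 2 gave the smallest fall of SPL4 at each of its 5 probes.

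The clade of SPL2, SPL10 and SPL11 did not move as 1 group. SPL2 had ratios of -0.50, -0.94, -0.69 and -0.73, a change of -0.72 ± 0.09 (SE, n = 4, adjusted p = 3.29e-05) that was under 1.8-fold, and its other gene probes gave -0.74 and -0.71. SPL10 had 0.36, -0.28, -0.02 and -0.15, with a change of -0.02 ± 0.10 (SE, n = 4, adjusted p = 0.865). SPL11 had 0.16, 0.19, 0.05 and 0.12, with a change of 0.13 ± 0.06 (SE, n = 4, adjusted p = 0.116). Every array of SPL2 lay below every array of SPL10 and SPL11. The call of SPL2 rested on a single probe for 1 of its transcripts, with ratios of -0.14, -2.31, -1.59 and -2.44 and a change of -1.62 ± 0.35 (SE, n = 4, adjusted p = 0.00244). That value is uncertain in size, since the probe was well above background in 2 of 2 channels at day 0, in 1 of 6 at day 2 and in none of 8 and 4 at days 4 and 8. SPL2 was not called without the arrays of sets 3 and 4 for this step, nor under a stricter filter on dim probes.

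SPL6 had ratios of -0.00, 0.11, 0.08 and 0.11, a change of 0.07 ± 0.06 (SE, n = 4, adjusted p = 0.294), with its other probes at 0.00 and 0.03. SPL8 had 0.01 and 0.01 in sets 1 and 3, in which the later day was labelled with Cy5, and -0.47 and -0.50 in sets 2 and 4, in which it was labelled with Cy3. Its change of -0.24 ± 0.07 (SE, n = 4, adjusted p = 0.0102) averages these 2 orientations and was under 1.8-fold. The split by dye was seen at the brightest SPL8 probe, while a probe for 1 SPL8 transcript gave -0.25, -0.50, -0.37 and -0.48, all lower, with a change of -0.40 ± 0.09 (SE, n = 4). No probe of either gene was called in this step.

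**Figure D2:**
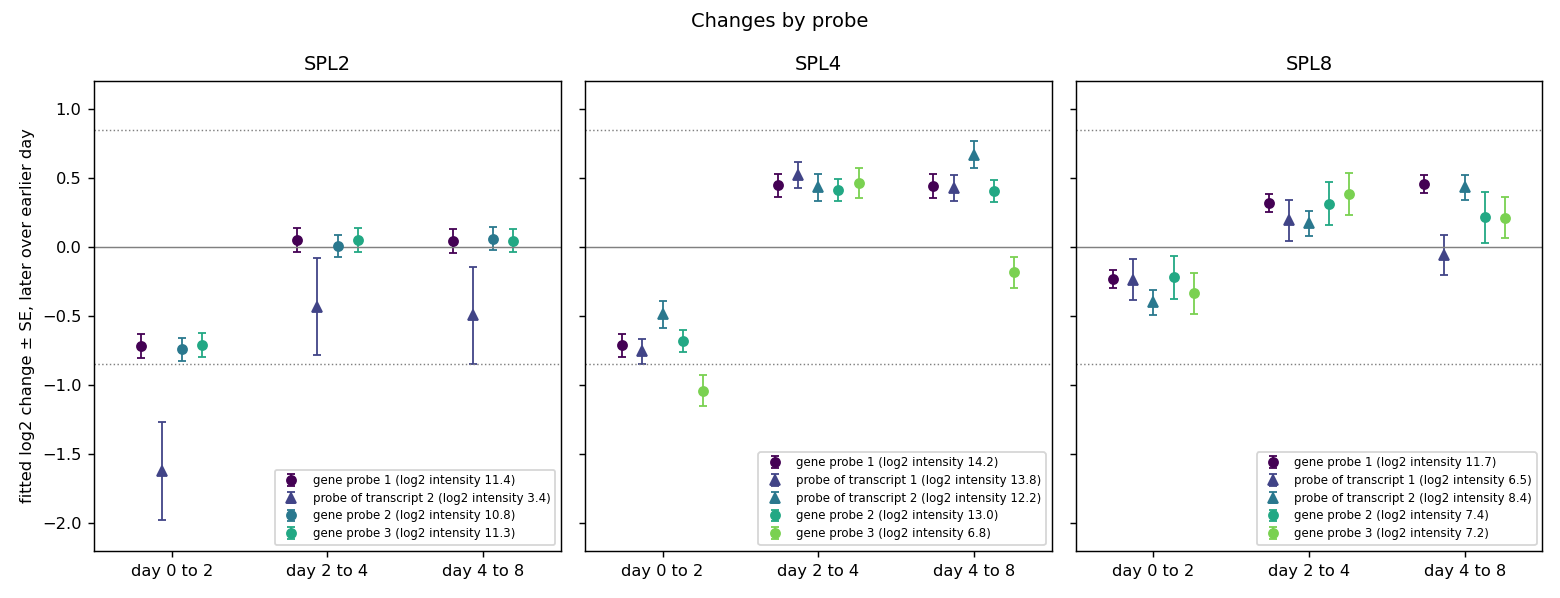
Fitted log2 change with its SE (y axis, n = 4 arrays per step) in the 3 steps (x axis) for every tested probe of SPL2, SPL4 and SPL8. For a dim gene probe of SPL8 a marked spot was left out of the last step. Circles are probes for the whole gene and triangles probes for 1 transcript, and the transcript probe of SPL2 at -1.62 and a dim gene probe of SPL4 at -1.04 are the ones beyond the dotted line of 1.8-fold, both in the first step.

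Genes that respond to touch and wounding moved in the same interval. Of 6 such markers 5 were called higher at day 2, with a median change of 3.24 and 7.93 for ERF1, and their summed intensity ranged over 105300 to 158400 in the day 2 channels, against 28630 to 39930 in the day 0 channels. From day 2 to day 4, 5 of 6 were called lower (median -2.31), and from day 4 to day 8, 4 of 6 higher (median 1.41). TCH2 was the marker called in none of the steps. All 6 were well above background at every time point, and their part in the changes of the SPL genes was not tested. Green leaf genes, another tissue that could have been collected, had 0 of 6 called in each of the 3 steps. From day 2 to day 4 all 6 had values above 0 (median 0.38), and 4 of 6 passed by adjusted p alone, among them LHCB2.1 at 0.77 and LHCB1.3 at 0.74. LHCB2.1 was called higher at day 8 than at day 0, at 1.16. The part of leaf tissue in the SPL changes was not tested.

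From day 2 to day 4 no SPL gene was called, against 9.14% of the loci tested, 5.78% lower and 3.36% higher. At an unadjusted limma p below 0.05 the count was 5 of 10. Of the values, 8 of 10 were above 0, with a median of 0.20 over the 10 genes and 0.06 over all loci, and a range of -0.02 to 0.58. By adjusted p alone, with no minimum fold, 5 genes were higher at day 4, namely SPL3, SPL4, SPL5, SPL8 and SPL9, SPL9 through 1 probe other than its brightest, against 16.5% of all loci, and none was lower, against 12.2%. SPL5 had ratios of 0.63, 0.22, 0.97 and 0.51, a change of 0.58 ± 0.08 (SE, n = 4, adjusted p = 0.000246). SPL3 had 0.64, 0.59, 0.53 and 0.36, a change of 0.53 ± 0.09 (SE, n = 4, adjusted p = 0.00110), and SPL4 had 0.61, 0.20, 0.60 and 0.37, a change of 0.45 ± 0.08 (SE, n = 4, adjusted p = 0.00183). All arrays of these 3 genes were higher at day 4. SPL8 had 0.38, 0.29, 0.47 and 0.12, a change of 0.32 ± 0.07 (SE, n = 4, adjusted p = 0.00308). SPL9 had 0.19, 0.35, 0.22 and 0.28, a change of 0.26 ± 0.10 (SE, n = 4, adjusted p = 0.0832), and SPL15 had 0.18, -0.19, 0.26 and 0.27, a change of 0.13 ± 0.14 (SE, n = 4, adjusted p = 0.552). For SPL2, SPL6, SPL10 and SPL11 the changes lay between -0.02 and 0.05, and each had arrays on both sides of 0. This step shares its day 2 extracts with the step before, so that an extract with a low reading at day 2 adds to the fall of one and the increase of the other.

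In the last step, from day 4 to day 8, SPL5 was the only gene of the 10 called, higher at day 8, against 18.3% of loci called, 12.7% higher and 5.56% lower. Its ratios were 1.07, 0.84, 1.19 and 1.08 in sets 1 to 4, a change of 1.05 ± 0.08 (SE, n = 4, adjusted p = 9.49e-07), and 2 of its 3 probes were called, the third being at 0.81. The mean was 0.96 over the arrays of sets 1 and 2, which lay on 1 slide, and 1.13 over those of sets 3 and 4 on another. The median change was 0.36 over the 10 genes and -0.08 over all loci, with 9 of 10 genes above 0. By adjusted p alone 6 genes were higher at day 8 and 1 lower, against 24.6% and 35.6% of all loci.

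Below 1.8-fold, SPL4 had ratios of 0.59, 0.38, 0.54 and 0.24, a change of 0.44 ± 0.08 (SE, n = 4, adjusted p = 0.000817). Its probes spread from -0.18 for the dim gene probe to 0.67 for the probe of 1 transcript. SPL3 had 0.22, 0.46, 0.20 and 0.87, a change of 0.44 ± 0.09 (SE, n = 4, adjusted p = 0.00174). The arrays of SPL3 lay apart by dye, at means of 0.21 in sets 1 and 3 and 0.66 in sets 2 and 4. Those of SPL4 lay less far apart, at 0.57 and 0.31. SPL11 had 0.49, 0.57, 0.42 and 0.21, a change of 0.42 ± 0.06 (SE, n = 4, adjusted p = 0.000150), with its other probes at 0.41 and 0.42. SPL8 had 0.60 and 0.83 in sets 1 and 3 and 0.09 and 0.30 in sets 2 and 4, a change of 0.45 ± 0.07 (SE, n = 4, adjusted p = 9.02e-05), and its arrays again lay apart by dye. Its other gene probes were at 0.21 and 0.21 and its transcript probes at 0.43 and -0.06. Of these only the probe at 0.43 had an adjusted p below 0.05. Its means by dye were 0.41 and 0.45, and those of a dim gene probe were 0.27 and 0.16. SPL2, SPL6 and SPL10 stayed between 0.01 and 0.04.

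SPL9 and SPL15, which both fell by day 2, had values of opposite sign in the last step, a difference between genes that was not tested. SPL15 had -1.19, -0.30, -0.72 and 0.01, a change of -0.55 ± 0.14 (SE, n = 4, adjusted p = 0.00607), and its other probes gave -0.57 and -0.65. SPL9 had -0.25, 0.27, 0.46 and 0.75, a change of 0.31 ± 0.10 (SE, n = 4, adjusted p = 0.0234). Both stayed under 1.8-fold, and both spread over about 1 unit among sets. The SE, shared by the 3 steps, does not show this wide spread. In each of the 4 sets the value of SPL15 was below that of SPL9, although the ranges of the 2 genes overlapped. Set 1 was the lowest for both genes and set 4 the highest. By slide, the mean of SPL15 was -0.74 for sets 1 and 2 and -0.35 for sets 3 and 4, and that of SPL9 was 0.01 for sets 1 and 2 and 0.60 for sets 3 and 4. By dye, the mean of SPL15 was -0.95 for sets 1 and 3, with the later day in Cy5, and -0.15 for sets 2 and 4. Its other probes had the same order, at -0.91 and -0.22 and at -0.85 and -0.45. The means of SPL9 by dye were 0.10 and 0.51, but another of its probes had 0.31 and 0.23.

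**Figure D3:**
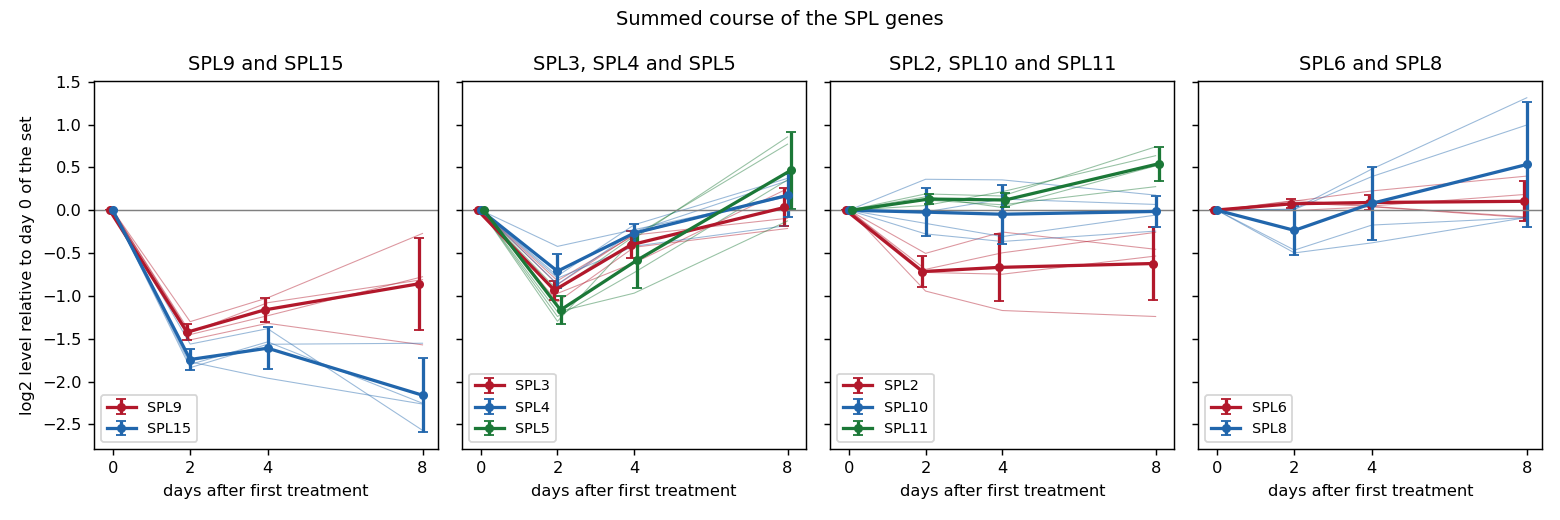
Summed log2 level relative to day 0 of the same set (y axis) at days 0, 2, 4 and 8 (x axis) for the brightest probe, by clade. Thin lines are the 4 sets and thick lines the mean with the SD (n = 4 sets), and SPL15 ends at -2.16 and SPL9 at -0.86, while SPL3, SPL4 and SPL5 return to or above 0.

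Summed over the steps, levels at day 8 ranged from far below to well above those of day 0. SPL15 stood at 29.9%, 32.7% and 22.4% of its day 0 level at days 2, 4 and 8, and SPL9 at 37.3%, 44.6% and 55.2%. SPL5 stood at 44.6%, 66.8% and 138% and SPL3 at 52.4%, 75.6% and 102%. SPL4 stood at 61.0%, 83.1% and 113%, and SPL2 at 60.9%, 63.0% and 65.0%. SPL11 reached 146% at day 8, whereas SPL6 stood at 108% and SPL10 stayed between 96.8% and 99.0%. SPL8 averaged 145% at day 8, but this mean came from sets 1 and 3. Its log2 sums were 0.995 and 1.31 in sets 1 and 3 and -0.09 and -0.08 in sets 2 and 4, a split by dye. The other SPL8 probes had changes from day 0 to day 8 of 0.31, 0.26, 0.20 and -0.10. In order of the range of the mean level over the 4 time points, the genes ran SPL15 (2.16 log2 units), SPL5 (1.63), SPL9 (1.42), SPL3 (0.97), SPL4 (0.89), SPL8 (0.77), SPL2 (0.72), SPL11 (0.54), SPL6 (0.10) and SPL10 (0.05). Neighbours in that order from SPL3 to SPL11 differed by less than the SD between sets. So did SPL6 and SPL10, with an SD of 0.23 and 0.18 at day 8, and SPL5 and SPL9, with 0.45 and 0.54. SPL9 and SPL3 also differed by less than the day 8 SD of SPL9. The range of SPL9 was reached at day 2, however, where its SD was 0.09.

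Between day 0 and day 8, which never shared an array, 3 of 10 genes were called lower by any probe and 2 of 10 by the brightest, against 27.4% of loci called, 12.1% lower and 15.3% higher. By adjusted p alone 4 genes had a probe that was lower at day 8 and 4 one that was higher, SPL4 having both, against 30.6% and 21.8% of all loci. SPL15 summed to -2.57, -2.26, -2.25 and -1.55 in sets 1 to 4, a change of -2.16 ± 0.25 (SE, n = 4, adjusted p = 2.35e-05). SPL9 summed to -1.57, -0.81, -0.78 and -0.27, a change of -0.86 ± 0.18 (SE, n = 4, adjusted p = 0.00180), just past 1.8-fold, and it fell short of it without set 1 (-0.66) or set 2 (-0.72) or with the median of each array set to 0 (-0.73). The SPL2 call was again that of the dim transcript probe, which was not well above background in any channel at day 8, so that its fall is known only as at least 1.22-fold. SPL5 summed to 0.77, -0.12, 0.86 and 0.35, with a change of 0.46 ± 0.15 (SE, n = 4, adjusted p = 0.0192), and SPL3 had a change of 0.03 ± 0.16 (SE, n = 4, adjusted p = 0.887). These SEs take the 3 steps as independent, although consecutive arrays of a set share extracts. The SD of the 4 sums was 0.43 for SPL15, 0.54 for SPL9 and 0.45 for SPL5. In the moderated F test over the 3 steps, the same 6 genes called at day 2 were called, against 33.9% of loci. The change of the last step differed from that of the first for 8 of 10 genes by adjusted p alone, against 41.2% of loci.

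**Figure D4:**
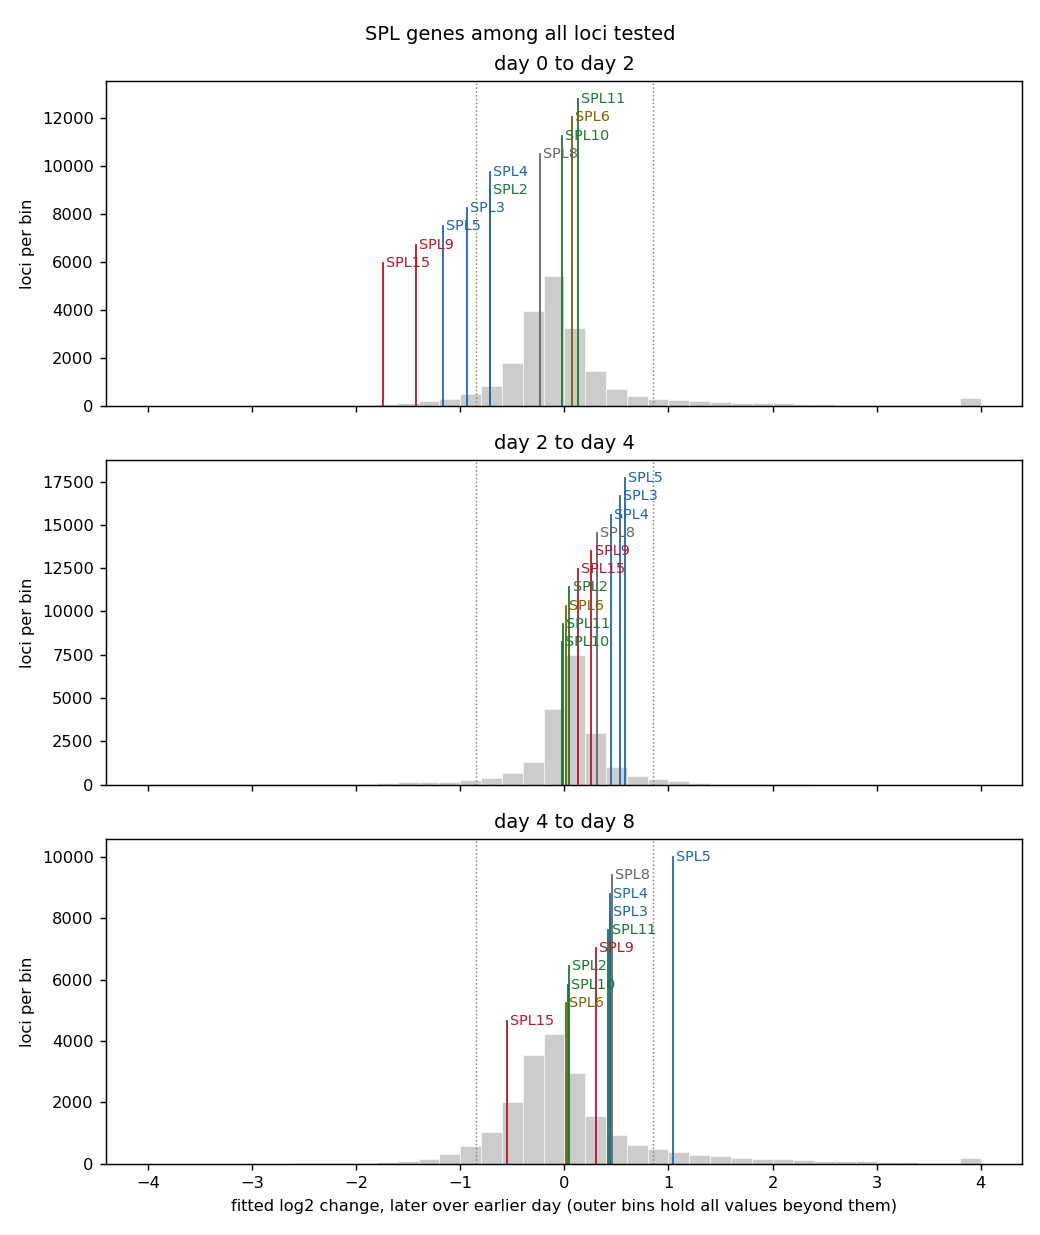
Number of loci (y axis) by fitted log2 change of their brightest probe (x axis, bins of 0.2, outermost bins holding all values beyond) in each step, with the SPL genes as labelled lines, whose height has no meaning, and 1.8-fold dotted. In the first panel SPL15 at -1.74 and SPL9 at -1.42 lie in the lower tail, in the second all SPL genes lie between the dotted lines, and in the third SPL5 at 1.05 lies beyond the upper one.

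For the 3 genes of widest range, the loci whose ratios went up and down most alike were sought by Pearson correlation over the 12 arrays, among brightest probes. These correlations are descriptions, since the arrays share extracts and 4 of them form each step, and they do not take account of the level of the ratios. SPL9 was closest to MSL5 (r = 0.991), ARO1 (r = 0.983) and the blue light receptor gene PHOT1 (r = 0.982), yet MSL5 and PHOT1 ended 1.15 and 0.61 above day 0 where SPL9 ended at -0.86. SPL5 was closest to CER1, a gene of cuticular wax synthesis (r = 0.982), AT1G70270 (r = 0.977) and APC1 (r = 0.977). SPL15 was closest to MAKR1 (r = 0.984), AT1G77200 (r = 0.981) and AT5G21100 (r = 0.979). None of the last 3 loci had the further decrease of SPL15 from day 4 to day 8, as their changes in that step were 0.20, 0.61 and 0.01.

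Of the remaining 7 SPL genes, 1 was called lower at day 2 (SPL16, through 1 of its probes), and their median change was 0.05, beside -0.10 over all loci. SPL16 had a change of -0.76 ± 0.10 (SE, n = 4, adjusted p = 6.53e-05) at its brightest probe. Between days 4 and 8, 2 of 7 were called higher, SPL13A at 1.33 ± 0.15 (SE, n = 4, adjusted p = 1.62e-05) and SPL13B at 1.06 ± 0.12 (SE, n = 4, adjusted p = 1.07e-05). SPL13A and SPL13B are near-identical copies, so that their probes may report the same transcripts. No gene of this list was called from day 2 to day 4.

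The microRNA genes upstream and downstream of the SPL genes were dim. Of 8 MIR156 loci 4 could be tested, and 0 of 4 were called in any step, with changes between -0.38 and 0.55. At an unadjusted limma p below 0.05 the counts were 0, 1 and 0 of 4 in the 3 steps, the 1 being MIR156d, which was not well above background in any channel at day 0 or day 2. These probes target precursor transcripts and not the mature microRNA. Of 5 MIR172 loci 2 could be tested, and both were called lower at day 2 than at day 0. MIR172b had ratios of -1.15, -2.15, -1.34 and -0.15 in sets 1 to 4 and a change of -1.20 ± 0.28 (SE, n = 4, adjusted p = 0.00418). It was well above background in 5 of 6 channels at day 2 and 2 of 2 at day 0. From day 4 to day 8 it had -1.66, -0.82, -0.97 and -1.06, a change of -1.13 ± 0.28 (SE, n = 4, adjusted p = 0.00481), with 2 of 4 channels well above background at day 8. MIR172d was well above background in 1 of 6 channels at day 2 and 1 of 2 at day 0, and it is not described further.

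Among the 6 AP2-type targets of miR172, 3 were called lower at day 2 by any probe, TOE1, TOE3 and SNZ. SNZ was not called by its brightest probe, which was at -0.42 ± 0.21 (SE, n = 4, adjusted p = 0.110). TOE3 changed by -1.90 ± 0.15 (SE, n = 4, adjusted p = 6.55e-07) and TOE1 by -1.04 ± 0.11 (SE, n = 4, adjusted p = 8.00e-06), whereas APETALA2 (AP2), which specifies sepals and petals, was at 0.40 ± 0.08. Between days 4 and 8 TOE3 rose by 1.16 ± 0.15 (SE, n = 4, adjusted p = 3.36e-05) and SMZ by 1.01 ± 0.15 (SE, n = 4, adjusted p = 0.000103). By day 8 AP2 was higher than at day 0 by 1.54 ± 0.13 (SE, n = 4, adjusted p = 2.15e-06).

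The 8 genes described as SPL targets did not share a direction. At day 2, LFY, a meristem identity regulator, rose by 1.01 ± 0.10 (SE, n = 4, adjusted p = 5.44e-06) and TRY, a repressor of trichome formation, by 1.15 ± 0.07 (SE, n = 4, adjusted p = 1.11e-07), while AGL42 was called lower through both probes other than its brightest, which was at -0.84 ± 0.08 (SE, n = 4). From day 4 to day 8 all 8 had values below 0, and LFY alone was called, at -1.08 ± 0.10 (SE, n = 4, adjusted p = 2.60e-06). Between day 0 and day 8 TRY was higher by 1.45 ± 0.13 (SE, n = 4, adjusted p = 2.74e-06), while SOC1 changed by -0.86 ± 0.13 (SE, n = 4, adjusted p = 0.000184) and AGL42 by -1.60 ± 0.14 (SE, n = 4, adjusted p = 2.98e-06).

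Of 6 regulators that act before or with the SPL proteins, 3 were called lower at day 2 by any probe, FT, FD and PNF. PNF was not called by its brightest probe, which was at -0.846 ± 0.069 (SE, n = 4) and so just under 1.8-fold. FD, the bZIP partner of the flowering signal FT, changed by -1.33 ± 0.09 (SE, n = 4, adjusted p = 2.91e-07) in the first step and by -1.40 ± 0.09 (SE, n = 4, adjusted p = 2.53e-07) in the last. FT changed by -1.27 ± 0.24 (SE, n = 4, adjusted p = 0.00122) and then by -1.01 ± 0.28 (SE, n = 3, 1 marked spot left out, adjusted p = 0.00972). PNF, a homeodomain protein of the inflorescence meristem, changed by -0.93 ± 0.07 (SE, n = 4, adjusted p = 5.30e-07) in the last step. Of 6 genes for the making and action of microRNAs, 0 were called in any step or between day 0 and day 8, with changes of -0.63 to 0.37 in the steps. At an unadjusted limma p below 0.05 the counts were 2, 1 and 5 of 6 in the 3 steps.

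**Figure D5:**
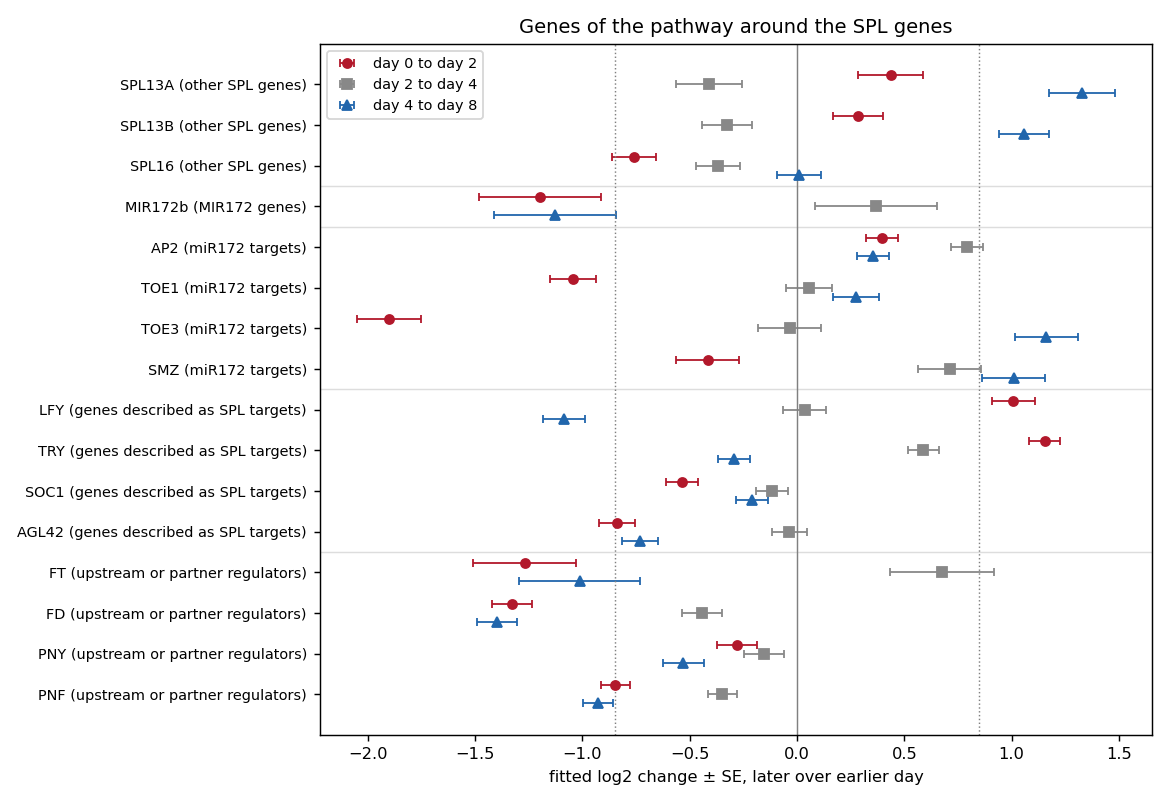
Fitted log2 change with its SE (x axis, n = 4 arrays per step) in the 3 steps for genes of the SPL pathway lists (rows), with 1.8-fold dotted. MIR172b, TOE1, TOE3, FT and FD lie beyond the lower dotted line from day 0 to day 2, LFY and TRY beyond the upper one, and SPL13A, SPL13B, TOE3 and SMZ beyond the upper one from day 4 to day 8. For FT a marked spot was left out of the last step.

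Markers of meristem tissue fell mainly in the last step, in which 9 of 10 SPL genes had values above 0. From day 4 to day 8, 5 of 7 inflorescence and floral meristem genes were called lower (median -1.08), among them CLV3 at -2.17 and STM at -1.05, and their summed intensity ranged over 37860 to 57050 in the day 8 channels, against 76920 to 101600 in the day 4 channels. From day 0 to day 2, when SPL9 and SPL15 fell, 0 of 7 were called lower and LFY was called higher (median -0.09), but CAL was at -0.72 ± 0.07 (SE, n = 4, adjusted p = 2.54e-06) and STM at -0.53 ± 0.07 (SE, n = 4, adjusted p = 4.12e-05), sizes like those of SPL2 and SPL4. All 7 were well above background in at least 1 channel at each time point. The part of tissue composition in the SPL changes was not tested.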

How the data were processed

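RNA of consecutive time points was compared on 12 Agilent 2-colour arrays, with 16 extracts in 4 sets and the dyes swapped between sets. The authors processed the arrays with Feature Extraction 10.5.1.1 and deposited log10 ratios of Cy5 over Cy3, which were turned here to log2 ratios of the later over the earlier day. Values of exactly 0 were taken to mark probes with neither channel above background, which was not tested. The deposited scanner files, which give intensity per spot, were used for detection and for alternatives. The files of 2 arrays, for day 0 to day 2, did not match the table.

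The model, fitted to each probe by limma (version 3.58.1, run under R 4.3.3), had a coefficient for every step and a dye term, leaving 8 residual degrees of freedom (12.02 after moderation). The error-model software named in the study's methods was not run. Dim probes and 718 marked spots were left out, and 28247 probes of 20906 loci were tested. A locus was called when at least 1 probe had an adjusted p below 0.05 and a 1.8-fold change, and the value given is that of its brightest probe. The change from day 0 to day 8 is the sum of the steps, with an SE that takes the steps as independent. The number of arrays limits the precision.

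The replicate number names the biological set, as the series' design text gives it, so the numbers pair the arrays. Deviations of arrays of 1 number correlated between -0.132 and 0.224, and those of different numbers between -0.262 and 0.332. With the dye removed, all 12 correlations of 1 number were negative, from -0.367 to -0.0359, against -0.234 to 0.303 for different numbers. Arrays of 1 number share the dye orientation, so that removing the dye by itself tends to lower their correlations. These values therefore do not decide whether the numbers pair the arrays. Alternatives covered the fold minimum, dim probes, marked spots, dye, slide and replicate terms, centring, probe averaging, background correction and leaving out sets. Plain background subtraction was chosen after seeing the data. Genes named outside the 10 belong to lists of the pathway and of tissue markers, or are the 3 loci closest in pattern. The members and lists were chosen with earlier results of these data known. The scripts were tested on simulated data. Gene names came from the array design and a RefSeq gene table, in which 99.3% of tested loci were found.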

Additional observations from a re-analysis of the deposited data

Results flagged for a closer look

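The change of the last step minus that of the first was tested in the limma fit and passed an adjusted p of 0.05 for 8 of the 10 SPL genes, against 41.2% of all loci. The difference was 2.21 ± 0.12 (SE, adjusted p = 1.09e-07) for SPL5, 1.73 ± 0.15 (adjusted p = 2.93e-06) for SPL9 and 1.37 ± 0.13 (adjusted p = 8.21e-06) for SPL3. It was 1.19 ± 0.20 (adjusted p = 0.000581) for SPL15, 1.15 ± 0.12 (adjusted p = 1.48e-05) for SPL4 and 0.76 ± 0.12 (adjusted p = 0.000429) for SPL2. For SPL8 it was 0.69 ± 0.09 (adjusted p = 9.67e-05) and for SPL11 0.29 ± 0.09 (adjusted p = 0.0233). All 8 differences were positive, SPL10 and SPL6 did not pass, and the steps compared share no extract. By the values of the SPL genes, no array stood apart within the 4 values of a step for any of the 10 genes, in 30 sets of 4 values of which chance marks about 1 in 20. The day 4 to day 8 array of set 2 differed from the others in its scan and its marked probes, and without set 2 SPL5 remained the 1 gene called in that step.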

How the results depend on the processing

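From day 0 to day 2, the 6 calls were kept in number without any 1 set. There were 4 with normexp or subtraction on the 10 matching arrays (SPL2 and SPL4 lost), 5 with the mean of all probes (SPL4 lost), and none was left with normexp correction of all 12 scanner files (0 SPL genes), where 1 locus of all was called. Among all loci the step had 10718 with no fold minimum, 1273 with normexp on the 10 matching arrays and 1495 with plain subtraction, against 3049. From day 2 to day 4, 5 SPL genes passed with no fold minimum, and all loci numbered 6006 with no fold minimum, 439 and 102 with normexp on 10 and 12 arrays and 1063 with subtraction, against 1911. From day 4 to day 8, 7 SPL genes passed with no fold minimum and 3 with a 1.5-fold minimum, and all loci numbered 12554 and 5826 under these, 638 and 565 with normexp on 10 and 12 arrays and 2239 with subtraction, against 3820. From day 0 to day 8, 7 SPL genes passed with no fold minimum, 1 with normexp or subtraction on the 10 arrays and 0 with normexp on 12, and all loci numbered 10928, 1266, 3410 and 162 under these, against 5727. Over the series 1 SPL gene was called with normexp on 12 arrays, and all loci numbered 16114 with no fold minimum, 2217 and 1127 with normexp on 10 and 12 arrays and 4240 with subtraction, against 7089. Normexp ratios correlated with the table at only 0.197 to 0.873 on matching arrays, and subtracted ones at 0.839 to 0.893. The cause of these differences was not tested.

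With the replicate block, 3016, 1881 and 3800 loci were called in the 3 steps, 5632 from day 0 to day 8 and 7004 over the series, and the SPL counts stayed at 6, 0, 1, 3 and 6. Without 1 set, the loci called ranged over 2811 to 3046, 1659 to 1918 and 3561 to 3841 in the 3 steps, 5010 to 5316 from day 0 to day 8 and 6660 to 6918 over the series, and SPL calls from day 0 to day 8 over 2 to 3. The genes called lower there were SPL2 and SPL15 without set 1, SPL4 and SPL15 without set 2 and SPL9 and SPL15 without set 3. Without set 4 they were SPL2, SPL9 and SPL15, so that SPL15 alone was called each time.

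Signs turned mostly for values near 0, and also for the last step of SPL3 (0.44 ± 0.09, SE) with normexp. The first step of SPL10 was 0.0423 without the 2 arrays whose files differ, 0.0920 and 0.103 with normexp on 10 and 12 arrays, 0.0990 with subtraction and 0.0721 with array medians at 0, and without 1 set it ranged over -0.138 to 0.0525. Its second step was 0.0484 with either normexp and 0.0801 over all probes, its last ranged over -0.0602 to 0.115 without 1 set, and its sum was 0.0503 without the differing arrays, 0.244 and 0.256 with normexp, 0.173 with subtraction, 0.115 with medians at 0, 0.0360 over all probes and -0.0610 to 0.0323 without 1 set. SPL2 was -0.0330 with subtraction and -0.0820 over all probes in the second step, and -0.0864 over all probes and -0.0598 to 0.162 without 1 set in the last. SPL11 in the second step was 0.0462 over all probes and -0.0676 to 0.0344 without 1 set. SPL3 was -0.241 with either normexp in the last step, and its sum was -0.0040 without the differing arrays, -0.873 and -0.479 with normexp, -0.0845 with subtraction and -0.0611 over all probes. SPL6 in the second step was -0.0380 with subtraction, -0.0304 with medians at 0 and -0.0153 to 0.0683 without 1 set, and in the last -0.0191 with either normexp, -0.0198 over all probes and -0.0238 to 0.0412 without 1 set.

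The brightest SPL3 probe fell short of 1.8-fold from day 0 to day 2 with array medians at 0 (-0.84), and it did not pass with normexp on 10 arrays (-0.97 ± 0.53, SE, limma adjusted p = 0.261) or 12 (-0.58 ± 0.37, adjusted p = 0.414). Detection at day 0 rests on 2 channels.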
